A study of Mus musculus with 6 samples.

Results

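C030037D09Rik, AA465934, 9930014A18Rik and Gm15564 are 4 mouse genes with placeholder names and no annotated coding sequence. They were selected on their counts in these libraries, each being lower in the mutant cortex than in the controls in an earlier analysis, and they are 4 of the 17068 genes of the deposited table. All 4 were found in the table. Their difference between the groups is therefore given as a description, with no p for any of them. The number of them called by each tool is printed beside the share of all genes called, and nothing is read from it. Bulk RNA-Seq was performed on the lateral cortex of female c57/bl6 embryos at embryonic day 12.5. The 4 controls lacked Cre, with controls 1, 2 and 4 being Foxp1 fl/+ and control 3 Foxp1 fl/fl, so every control carried a floxed Foxp1 allele. The 2 mutants were Foxp1 fl/fl;Emx1Cre (Foxp1cKO). Emx1Cre acts in radial glia of the dorsal telencephalon and in cells that descend from them, so the vessels, blood and meninges of the dissected tissue keep an intact floxed allele.

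Long noncoding RNAs are transcribed and spliced much like messenger RNAs but are not known to be translated. Many start beside the promoter of a coding gene or run through it on the other strand, and some carry small nucleolar RNAs (snoRNAs) in their introns. For such a host gene the intron, once trimmed, gives the stable snoRNA, while the spliced exons are often short-lived. Noncoding genes of the developing cortex are often restricted to progenitors or to neurons, and few of those known only by a placeholder name have an assigned role.

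C030037D09Rik, 9930014A18Rik and Gm15564 each lie against, or inside, a protein-coding gene transcribed from the other strand (positions from GENCODE M21 on GRCm38, the assembly of mm10). C030037D09Rik (ENSMUSG00000087574.1) is a lincRNA gene at chr11:88718645-88728893 on the plus strand. It starts 132 bases from the start of Msi2, which encodes an RNA-binding protein of neural progenitors and runs the opposite way, a head-to-head arrangement. AA465934 (ENSMUSG00000093483.1), annotated as a processed transcript, lies at chr11:83291699-83294632 on the plus strand. Its intron of 2223 bases holds the snoRNA gene Snord7. 9930014A18Rik (ENSMUSG00000097493.3), also a processed transcript, lies at chr15:60822271-60831793 on the plus strand, wholly within the span of Fam84b. Of its exons, 2474 bases lie over exons of Fam84b on the other strand. Gm15564 (ENSMUSG00000086324.8) is annotated as antisense at chr16:35966752-35983230 on the minus strand. It overlaps the start region of Kpna1, a nuclear import receptor, by 4481 bases. It also overlaps the end of Parp9, a gene of interferon responses, by 5854 bases. In these GENCODE models it shares no exonic base with either, while the RefSeq models of Gm15564 and Kpna1 overlap by 42 bases at their starts. The 4 genes have 4199, 711, 7043 and 821 exonic bases, in the order given above.

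**Figure D1:**
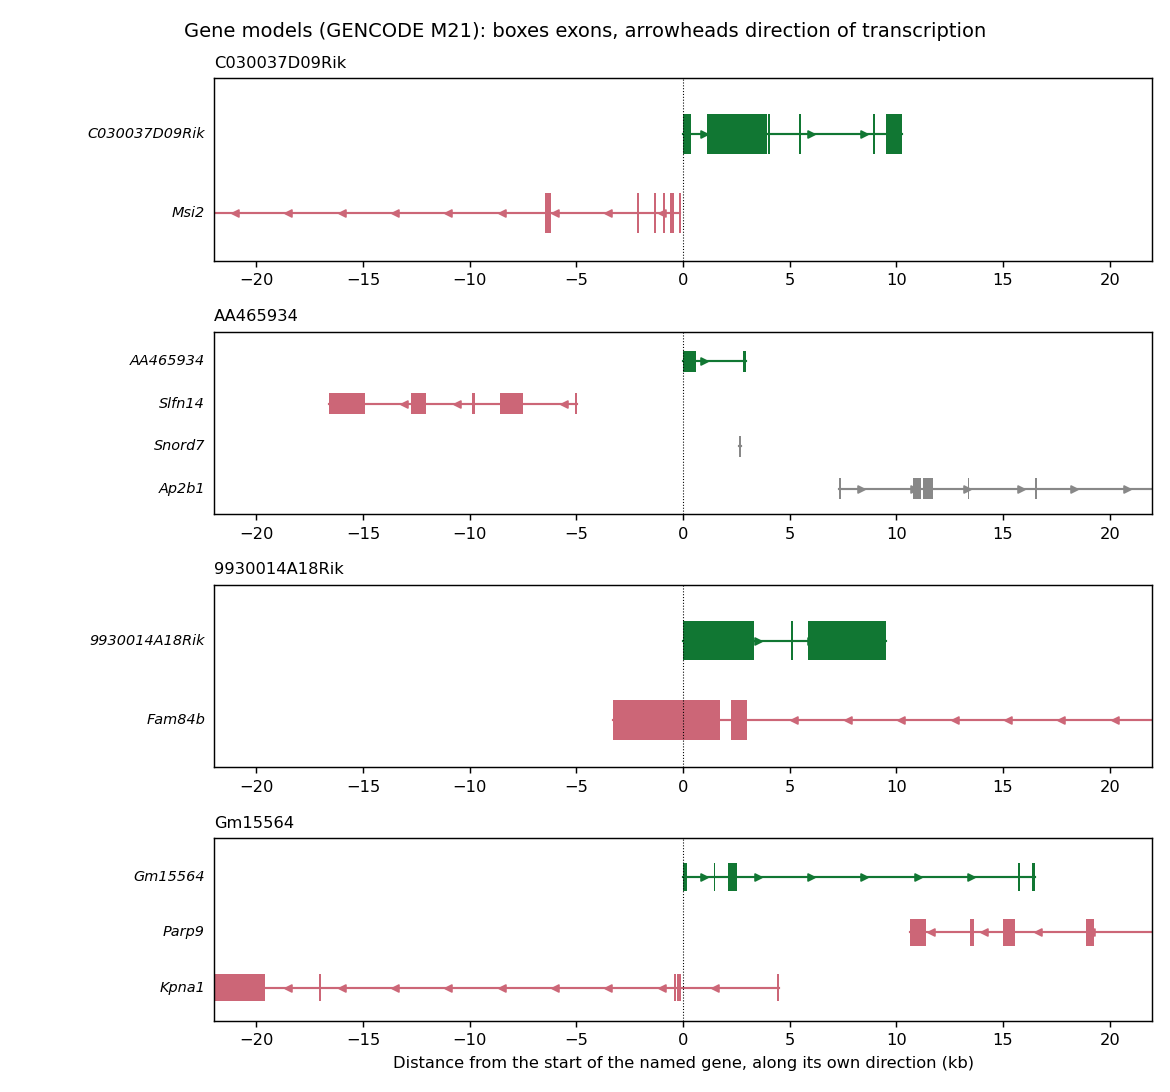
Gene models around each of the 4 genes (GENCODE M21), with distance in kb from the start of the named gene along its own direction. Green marks the named gene, red coding genes on the other strand and grey genes on the same strand, boxes are exons and arrowheads give the direction of transcription; Msi2 starts 132 bases behind C030037D09Rik, and 9930014A18Rik lies within Fam84b.

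The windows around 3 of the starts are shown because C030037D09Rik and AA465934 had nearly the same profile over the libraries, and because Gm15564 starts against Kpna1. Each window of 300 bases runs 5′ to 3′ on the gene's own strand, from 250 bases before the RefSeq start, and was taken from RefSeq on GRCm38.p6. The windows are chr11:88718393-88718692 for C030037D09Rik, chr11:83291449-83291748 for AA465934 and chr16:35983280-35983579, minus strand, for Gm15564. Capitals mark CACGTG in the C030037D09Rik and AA465934 windows and GCGTG in the Gm15564 window.
C030037D09Rik: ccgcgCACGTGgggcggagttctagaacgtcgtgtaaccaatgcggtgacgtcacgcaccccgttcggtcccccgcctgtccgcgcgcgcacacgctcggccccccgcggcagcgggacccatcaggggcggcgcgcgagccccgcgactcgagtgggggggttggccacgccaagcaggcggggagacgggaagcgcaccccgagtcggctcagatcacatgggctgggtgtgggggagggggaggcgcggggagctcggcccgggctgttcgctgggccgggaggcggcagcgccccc
AA465934: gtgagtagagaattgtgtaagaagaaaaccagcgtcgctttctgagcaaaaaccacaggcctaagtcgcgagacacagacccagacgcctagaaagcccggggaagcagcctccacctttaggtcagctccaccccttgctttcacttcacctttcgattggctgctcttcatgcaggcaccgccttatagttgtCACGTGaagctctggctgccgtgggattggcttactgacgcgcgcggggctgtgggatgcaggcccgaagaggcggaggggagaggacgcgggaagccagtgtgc
Gm15564: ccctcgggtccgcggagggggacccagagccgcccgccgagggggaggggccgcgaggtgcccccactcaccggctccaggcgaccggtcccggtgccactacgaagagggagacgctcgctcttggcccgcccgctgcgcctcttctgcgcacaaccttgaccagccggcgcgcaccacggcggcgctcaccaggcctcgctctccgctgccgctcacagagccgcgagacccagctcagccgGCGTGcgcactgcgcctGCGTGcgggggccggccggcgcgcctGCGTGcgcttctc

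CACGTG, the E-box read alike on both strands, was found at 245 bases before the start of C030037D09Rik and at 55 bases before that of AA465934, and had 0 matches in the Gm15564 window. Of 32807 RefSeq windows of this length, 7.15% hold it. ACGTG or GCGTG, the core letters of hypoxia response elements, had 5 matches for C030037D09Rik, 2 for AA465934 and 3 for Gm15564, searched on both strands. Since each CACGTG holds ACGTG on both strands, 2 of those matches in each of the first pair of windows are the E-box itself. Such letters stand in 43.8% of the windows. TGTTTAC, a forkhead motif, had 0 matches in the 3 windows and occurs in 3.65% of all windows. GC content was 75.7% for C030037D09Rik, 58% for AA465934 and 76.7% for Gm15564, against a median of 52.7%. A match describes letters only, and the motifs were chosen after the sequences were seen.

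Snord7 is shown because it is the stable RNA that AA465934 is annotated to host. It lies at chr11:83294304-83294400 on the plus strand, 114 bases before the next exon, and has 97 bases (GENCODE M21 position, GRCm38). Capitals mark its box C (ATGATGA) and box D (CTGA), the short motifs that define this class of snoRNA. Snord7 was not among the genes of the count table, so its own level was not analysed here.
Snord7: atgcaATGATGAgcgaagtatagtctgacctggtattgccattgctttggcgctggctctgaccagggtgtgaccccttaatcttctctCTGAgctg

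Each library held 50076008 to 78346979 counts in all. At these totals a floor of 3 counts is 0.0383 to 0.0599 CPM, edgeR's measure of a count relative to its TMM-scaled library total. The targeted gene Foxp1 had 59.7 to 79.1 CPM in the controls and 83.2 and 76.8 CPM in the Foxp1cKO libraries (log2 fold change 0.24 with a SE, the standard error of the fit, of 0.129, adjusted p = 0.468, edgeR), so it was not lower, and the group names used here rest on the sample labels alone. The table sums reads over all exons of Foxp1, so the floxed part cannot be viewed alone. Cortical identity was present in each library, with radial glia markers (8 of 9 in the table) summing to 2033 to 2599 CPM in controls and 2256 to 2354 CPM in Foxp1cKO, and cortical neuron markers (5 of 6) to 1636 to 3159 and 2101 to 2344 CPM. Red cell markers (8 of 8) summed to 1090 to 3429 CPM in controls and to 3760 and 4021 CPM in Foxp1cKO, and mural cell markers (4 of 4) to 64.1 to 83.1 and to 104 and 108 CPM, so both mutant libraries were above every control. Sums of the other 6 marker lists overlapped between the groups: intermediate progenitors (532 to 728 and 516 to 586 CPM), Cajal-Retzius cells (355 to 443 and 409 to 536), ventral telencephalon (208 to 690 and 349 to 501), endothelium (120 to 186 and 178 to 218), microglia (19.9 to 32.1 and 30.5 to 32.4) and meninges (92.7 to 562 and 150 to 340). A sum does not show its single genes. Of the 6 endothelial markers, 4 had a positive and 2 a negative log2 fold change. In edgeR 1 of these 6 was called, upward, where 0.152% of all genes were called in either direction. In all lists 0 of the markers in the table were at the floor.

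Gm15564 was the gene of the 4 with the clearest separation of the groups. It had 1985, 1976, 2642 and 2048 counts in controls 1 to 4 and 682 and 1162 counts in Foxp1cKO 1 and 2. These were 32.1, 31.8, 36.3 and 26.0 CPM in the controls and 13.6 and 15.3 CPM in the mutants. Every control was above both mutants, and the lowest control, control 4, still stood apart from the higher mutant. The means were 31.5 ± 4.21 CPM in controls (SD, n = 4) and 14.4 ± 1.25 CPM in Foxp1cKO (SD, n = 2), a log2 fold change of -1.13 (SE 0.149), or 54.2% lower. In bulk tissue, fewer cells that transcribe a gene and less RNA per cell cannot be told apart.

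9930014A18Rik was the most weakly expressed. It had 255, 207, 221 and 444 counts in controls 1 to 4 and 136 and 186 in the mutants, and counting error alone was 8.58% of its value at the lowest count. Its levels were 4.12, 3.33, 3.03 and 5.64 CPM in the controls and 2.70 and 2.45 CPM in the mutants. Both mutants were below every control, with a narrow gap between control 3 and Foxp1cKO 1. The means were 4.03 ± 1.17 CPM (SD, n = 4) and 2.58 ± 0.177 CPM (SD, n = 2), a log2 fold change of -0.65 (SE 0.290), or 36.1% lower. This difference ran from -0.23 against control 3 to -1.13 against control 4, as the log2 ratio of the mutant mean to each control.

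In AA465934, the Snord7 host, the highest and lowest controls lay further apart than the group means did. It had 1168, 574, 1252 and 2508 counts in controls 1 to 4 and 493 and 766 in the mutants, which are 18.9, 9.24, 17.2 and 31.9 CPM in the controls and 9.80 and 10.1 CPM in the mutants. Control 2 was below both mutants and control 4 was far above every other library, so the groups overlapped. The means were 19.3 ± 9.37 CPM (SD, n = 4) and 9.95 ± 0.213 CPM (SD, n = 2), a log2 fold change of -0.96 (SE 0.436), or 48.4% lower. Without control 4 the log2 fold change was -0.60.

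C030037D09Rik showed the same order of libraries at the extremes. Its counts were 557, 308, 664 and 1367 in controls 1 to 4 and 271 and 401 in the mutants, or 8.99, 4.96, 9.11 and 17.4 CPM in the controls and 5.39 and 5.29 CPM in the mutants. Control 2 again fell below both mutants, and control 4 again stood far above the rest. The means were 10.1 ± 5.21 CPM (SD, n = 4) and 5.34 ± 0.0698 CPM (SD, n = 2), a log2 fold change of -0.92 (SE 0.454), or 47.2% lower. Without control 4 it was -0.53. Control 4 had the lowest sum of cortical neuron markers (1636 CPM, against 2548 to 3159 in the other controls) and the highest sum of red cell markers among the controls (3429 CPM, against 1090 to 1436), and the part of these in the levels of both genes was not tested.

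**Figure D2:**
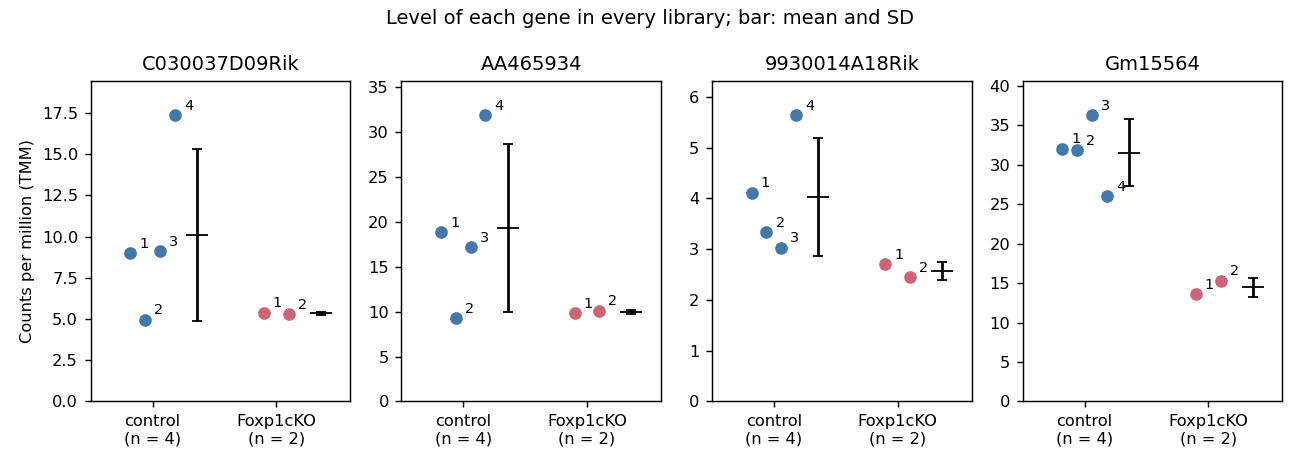
Level of each of the 4 genes in CPM in every library, for 4 controls (blue) and 2 Foxp1cKO (red), numbered as in the text, with the mean and SD of each group beside the points. Both mutants lie below all controls for 9930014A18Rik and Gm15564, while control 2 lies below both mutants for C030037D09Rik and AA465934.

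Both mutants were below all 4 controls in 2 of the 4 genes, where 13.1% of all genes in the table had this pattern. When control 2 was left out, this held for all 4 genes, and for 14.5% of all genes. Control 2 was the library below both mutants in C030037D09Rik and AA465934. Leaving it out therefore fixed the result for the 4 genes in advance, and the 14.5% is not a like comparison. When control 1, 3 or 4 was left out instead, the pattern did not hold for these genes. In edgeR's fit 0 of the 4 were past an adjusted p of 0.05, as were 0% of all genes in the lower direction and 0.152% (26 genes, all higher) in either direction. At an unadjusted p under 0.05, 1 of the 4 was past, Gm15564, beside 6.5% of all genes in the lower direction and 13% in either. DESeq2's adjusted p called 1 of the 4, again Gm15564, beside 1.31% of genes lower and 3.36% in either direction. Without control 4, edgeR also called Gm15564, beside 0.0762% of genes lower. In every other edgeR fit tried, 0 of the 4 were called. This contrast chose the 4 genes, so none of these calls counts as support for them.

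The spread among controls set the 4 genes apart from each other. The highest control was 3.50 times the lowest for C030037D09Rik, 3.45 times for AA465934, 1.86 times for 9930014A18Rik and 1.39 times for Gm15564. The SD of log2 CPM over the controls was 0.74 for C030037D09Rik, and 3.39% of genes with a mean of at least 1 CPM had a larger one. For AA465934 it was 0.73, with 3.44% of genes above it. For 9930014A18Rik it was 0.39, with 14.3% above, and for Gm15564 0.20, with 40.8% above. Counting error was at most 6.08% for C030037D09Rik and 4.50% for AA465934, far below these spreads. Among all 17068 genes ordered from the most negative log2 fold change, Gm15564 was at place 129, AA465934 at 197, C030037D09Rik at 217 and 9930014A18Rik at 480.

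Per kb of exon, Gm15564 and AA465934 were the more abundant RNAs. In controls the mean level was 38.4 CPM per kb for Gm15564, 27.1 for AA465934, 2.41 for C030037D09Rik and 0.572 for 9930014A18Rik. In Foxp1cKO the levels were 17.6, 13.99, 1.27 and 0.366 CPM per kb in the same order. Gm15564 exceeded AA465934 in 5 of the 6 libraries, and the order was turned in control 4, at 31.7 against 44.8 CPM per kb. C030037D09Rik at its lowest, 1.18 CPM per kb in control 2, was above 9930014A18Rik at its highest, 0.801 CPM per kb in control 4.

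C030037D09Rik and AA465934, which lie on the same chromosome and have no exon in common, kept nearly 1 ratio in every library. Their log2 CPM correlated with a Pearson r of 0.9945 and a Spearman rho of 0.886 over the 6 libraries, and with r = 0.99 over the 4 that remain without controls 2 and 4. After each group mean was subtracted r was 0.992, and over the controls alone it was 0.993. These are descriptions over few libraries that share the group difference which chose the genes. The ratio of AA465934 to C030037D09Rik counts was 2.10 (1.90 to 2.32), 1.86 (1.62 to 2.14), 1.89 (1.72 to 2.07) and 1.84 (1.72 to 1.96) in controls 1 to 4, with Wilson 95% intervals that cover counting error only. It was 1.82 (1.57 to 2.11) in Foxp1cKO 1 and 1.91 (1.69 to 2.16) in Foxp1cKO 2. All 6 intervals overlapped each other, while each gene alone ranged by 3.45 or 3.50 times.

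The other pairs had a lower r over the 6 libraries. 9930014A18Rik had r = 0.859 with C030037D09Rik (rho 0.543) and 0.863 with AA465934 (rho 0.6), and the latter fell to 0.166 without controls 1 and 4, so it rested on those libraries. Gm15564 had r = 0.425 with C030037D09Rik (rho 0.314), 0.458 with AA465934 (rho 0.314) and 0.504 with 9930014A18Rik (rho 0.429). Over 4 libraries, of which both mutants are a part, its r was higher: 0.989 with C030037D09Rik without controls 2 and 4, 0.567 with AA465934 and 0.840 with 9930014A18Rik without controls 1 and 4. Without controls 2 and 4, 9930014A18Rik and C030037D09Rik had r = 0.807. Once group means were subtracted over all 6 libraries, the r of Gm15564 was -0.58, -0.54 and -0.92 with the same genes. Gm15564 was lowest among the controls in control 4, the library in which the other three were highest.

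**Figure D3:**
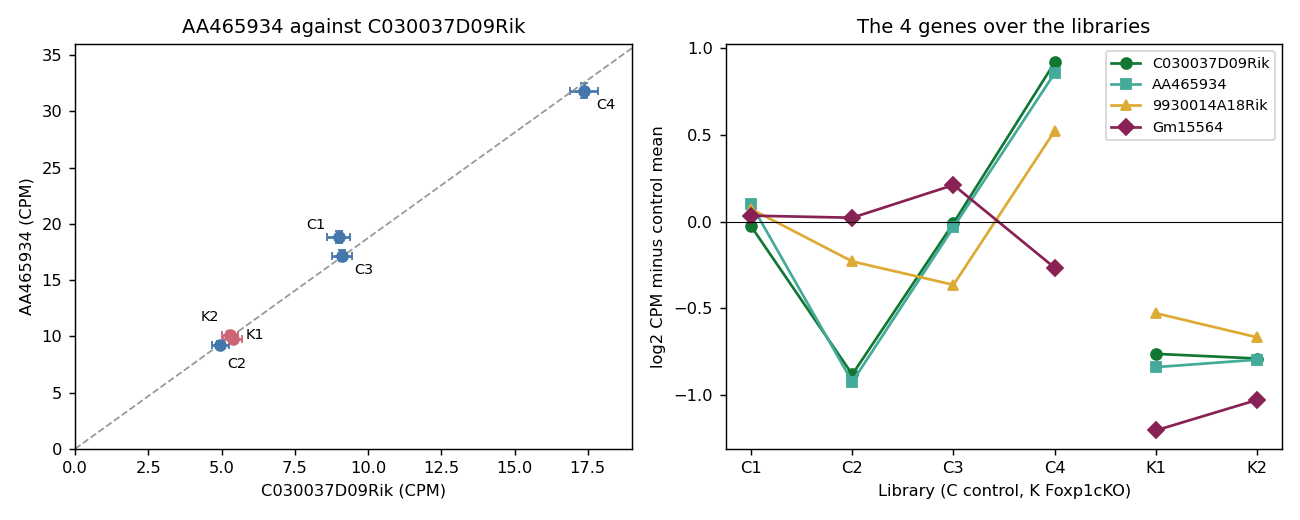
Left, AA465934 against C030037D09Rik in CPM in each library (C controls, K Foxp1cKO), with counting error as bars and a dashed line at the median ratio of 1.88. Right, log2 CPM of the 4 genes minus each gene's control mean over the libraries; C030037D09Rik and AA465934 move as a pair, and Gm15564 goes the other way in control 4.

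The genes whose profiles were most like each of the 4 were sought among 13854 others with a mean of at least 1 CPM, by Pearson r of log2 CPM over the 6 libraries. For C030037D09Rik they were AA465934 (0.9945), the antisense gene 1810062O18Rik (0.9885), Ldah (0.9853), which encodes a lipid droplet hydrolase, the processed pseudogene Gm5182 (0.9825) and the zinc transporter gene Slc30a7 (0.9809). For AA465934 they were C030037D09Rik (0.9945), Gm5182 (0.9926), Slc30a7 (0.99), the glucose transporter gene Slc2a4 (0.9891) and 1810062O18Rik (0.9848). The 2 lists thus share Gm5182, Slc30a7 and 1810062O18Rik. Gm5182 had the widest swing of these, at 3.18, 1.06, 2.91 and 5.55 CPM in controls 1 to 4 and 1.35 and 1.37 CPM in the mutants. Ldah followed the same order over a narrow range, from 59.9 to 71.0 CPM. Slc30a7 also had a narrow range, from 59.4 to 69.2 CPM, but was lowest in Foxp1cKO 1 (59.4 CPM) and not in control 2 (60.2 CPM). An r above 0.95 was shared with C030037D09Rik by 16 genes (0.116%) and with AA465934 by 17 genes (0.123%).

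For 9930014A18Rik the nearest profiles included those of Noc3l (0.999), Rpain (0.9935), Utp6 (0.9888) and Tars (0.9885). Noc3l and Utp6 act in ribosome assembly, Rpain carries replication protein A into the nucleus and Tars charges threonine tRNA. Their log2 fold changes lay between -0.35 for Utp6 and -0.20 for Noc3l, against -0.65 for 9930014A18Rik. For Gm15564 the nearest were Suds3 (0.9963), a subunit of a histone deacetylase complex, Asb8 (0.9938), Il31ra (0.993), a cytokine receptor gene, Exog (0.9928), a mitochondrial nuclease gene, and Fam118b (0.9915). Il31ra alone of these moved on the scale of Gm15564, at 122, 121, 122 and 85.1 CPM in the controls and 41.6 and 46.9 CPM in the mutants (log2 fold change -1.35, SE 0.171). An r above 0.95 was shared with 9930014A18Rik by 162 genes (1.17%) and with Gm15564 by 150 genes (1.08%). With 6 libraries and this many genes, high values arise among many pairs, and the lists describe profiles only.

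The coding genes beside the 4 loci, which the choice of the genes did not use, lay on both sides of 0. Within 250 kb of the 4 genes GENCODE M21 places 72 other genes, of which 22, all protein-coding, were in the table. Of these, 0 had an adjusted p under 0.05 in edgeR, where 0.152% of all genes did, and so few calls say little about 22 genes. An unadjusted p under 0.05 was found for 5, beside 13% of all genes, and DESeq2 called 3 (Msi2, Fam162a and Ccdc58), beside 3.36% of all genes. Their log2 fold changes were negative in 11 and positive in 11, with a median of 0.022 and a range from -0.72 to 1.36. Both mutants were below all controls in 3 of the 22, against 13.1% of all genes, and above all controls in 4, against 11.5%.

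Msi2, head to head with C030037D09Rik, had 237, 253, 289 and 310 CPM in controls 1 to 4 and 407 and 375 CPM in the mutants. Both mutants were above every control, the reverse of the side C030037D09Rik was on against 3 of its 4 controls. Its log2 fold change was 0.52 (SE 0.119) and its adjusted p 0.242 in edgeR, while DESeq2 called it. Akap1, the nearest gene of the table on the far side at 101899 bases, anchors a kinase to mitochondria and had a log2 fold change of -0.16 (SE 0.106, adjusted p = 0.543, edgeR).

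Slfn14, the nearest gene of the table on the start side of AA465934 at 4973 bases, belongs to a family known from blood cells and was weakly expressed at 0.710 ± 0.725 CPM in controls (SD, n = 4) and 1.06 ± 0.237 CPM in the mutants (SD, n = 2), with an adjusted p of 0.801 in edgeR.

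Fam84b, whose exons lie across those of 9930014A18Rik on the other strand, had 11.4, 11.9, 7.42 and 18.4 CPM in the controls and 15.96 and 15.92 CPM in the mutants. Its log2 fold change was 0.38 (SE 0.313, adjusted p = 0.637, edgeR), and the mutants lay inside the range of the controls. Control 4 was highest and control 3 lowest among the controls in both genes. The libraries were made with a stranded kit, but the strand setting of the read counting is not given in the sources used here, so reads of the overlapping exons cannot be assigned to one gene of this pair with certainty. The same limit holds for Gm15564 and intronic reads of Kpna1 and Parp9.

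Kpna1, which overlaps the start of Gm15564, had 164, 177, 166 and 163 CPM in the controls and 140 and 151 CPM in the mutants. Both mutants were below every control, by a log2 fold change of -0.20 (SE 0.0747, adjusted p = 0.343, edgeR), a smaller difference than the -1.13 of Gm15564. Parp9, at the other end, had 7.12 ± 2.79 CPM in controls (SD, n = 4) and 6.14 ± 0.339 CPM in the mutants (SD, n = 2), with an adjusted p of 0.848 in edgeR. Beyond them, Dtx3l, the partner of Parp9, had a log2 fold change of -0.40 (SE 0.420, adjusted p = 0.722, edgeR) and Wdr5b one of -0.25 (SE 0.128, adjusted p = 0.449, edgeR). The smallest adjusted p of the 22 was that of Fam162a, a hypoxia-responsive mitochondrial gene at 60531 bases from Gm15564, named here after its values were seen. It had 40.0, 35.1, 32.4 and 52.0 CPM in the controls and 89.0 and 115 CPM in the mutants, a log2 fold change of 1.36 (SE 0.196, adjusted p = 0.0758, edgeR). DESeq2 called it, and edgeR did so once control 4 was left out.

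**Figure D4:**
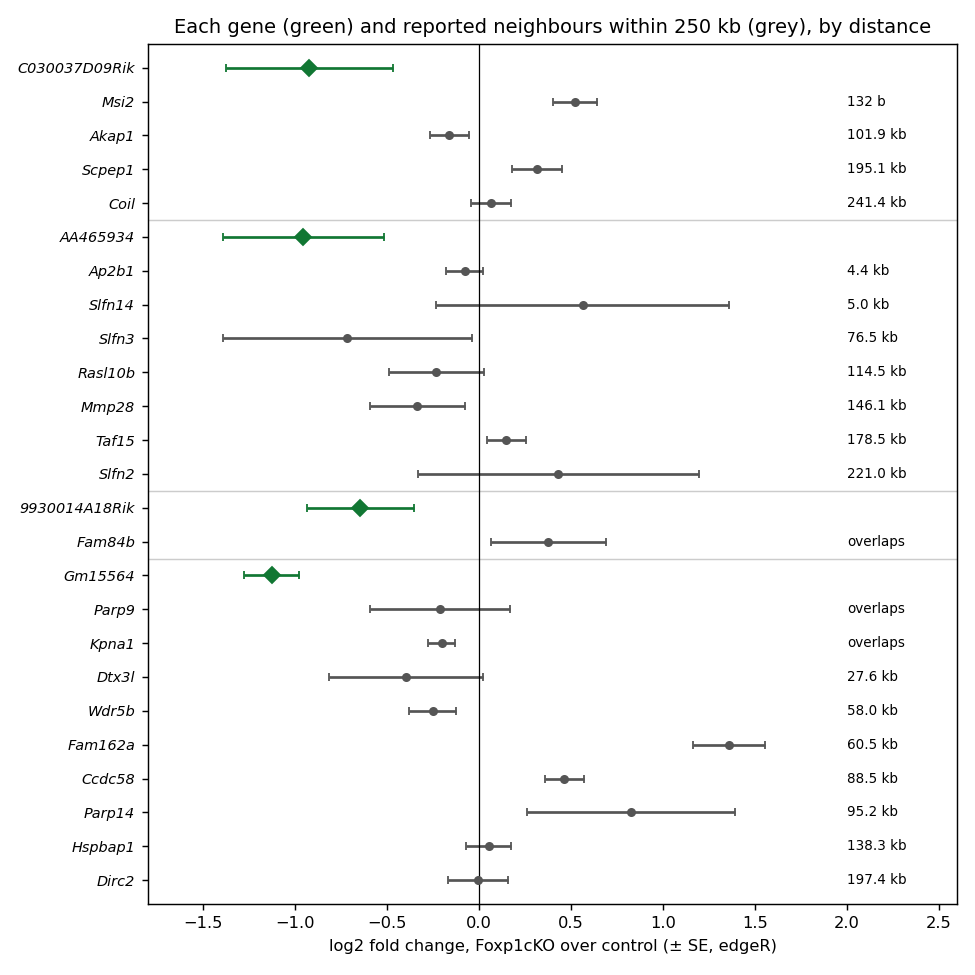
Log2 fold change, Foxp1cKO over control, with its standard error (edgeR), of each of the 4 genes (green diamonds) and of the reported genes of the table within 250 kb of them (grey), ordered by distance, which is printed at the right. The neighbours fall on both sides of 0, from -0.72 for Slfn3 to 1.36 for Fam162a.

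As a class, long noncoding genes leaned slightly to the positive side, while the 4 genes were chosen for being lower. Of 2123 genes with a long noncoding biotype, 941 had a negative and 1182 a positive log2 fold change, with a median of 0.06 against -0.0044 over all 17068 genes. Without Foxp1cKO 1 the median of the class was 0.014. In edgeR 4 of them passed the threshold upward and 0 downward, and at an unadjusted p under 0.05 there were 147 upward and 71 downward. Over all 17068 genes these numbers were 26 and 0, and 1115 and 1109. Of 2960 genes with a placeholder symbol, 1377 were negative and 1583 positive, with a median of 0.03, and again 4 passed upward and 0 downward (unadjusted, 174 and 96). Both mutants were below all controls in 9.04% of the long noncoding genes and 9.22% of the placeholder genes, beside 13.1% of all genes. The 5th percentile of the log2 fold change was -0.80 among long noncoding genes and -0.46 over all genes. C030037D09Rik, AA465934 and Gm15564 were below both, and 9930014A18Rik was below the latter only. The mean level had a median of 0.901 CPM among long noncoding genes and 19.6 CPM over all genes. Their low values chose the 4 genes, so these places are descriptions.

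Among 39 noncoding genes with a known part in brain or growth, 34 were in the table, of which 0 passed the threshold in edgeR (0.152% of all genes did) and 7 had an unadjusted p under 0.05 (13% of all genes). Their log2 fold changes were negative in 8 and positive in 26, with a median of 0.17. Neat1, the scaffold of paraspeckles, had 2.12 to 3.84 CPM in controls and 6.52 and 6.38 CPM in the mutants (log2 fold change 1.13, SE 0.252, adjusted p = 0.242, edgeR). The imprinted H19 had 78.4 to 142 CPM in controls and 186 and 243 CPM in the mutants (0.99, SE 0.267, adjusted p = 0.264, edgeR). Mir9-3hg, host of a microRNA of neural progenitors, was on the lower side, with 466 to 576 CPM in controls and 384 and 392 CPM in the mutants (-0.40, SE 0.105, adjusted p = 0.256, edgeR). Of the listed snoRNA hosts, a class to which AA465934 belongs, Snhg1, Snhg12 and Gas5 had log2 fold changes of -0.23, -0.08 and 0.013, with adjusted p-values from 0.612 to 0.984 in edgeR. Another such host, Snhg11, had 14.7 to 50.4 CPM in controls and 63.8 and 50.7 CPM in the mutants, above every control (0.93, SE 0.409, adjusted p = 0.399, edgeR).

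A list of 18 structural and ribosomal RNA genes, which holds Gm15564 itself, had 9 members in the table. Of these 6, among them Gm15564, had a negative and 3 a positive log2 fold change. In edgeR 0 passed the threshold (0.152% of all genes did), and 4, again with Gm15564, had an unadjusted p under 0.05 (13% of all genes). The median was -0.16. Gm15564 was chosen for being lower, so its part in these numbers is no result about the list. CT010467.1 had 2.33 to 3.33 CPM in controls and 1.61 and 1.16 CPM in the mutants (-0.93, SE 0.263, adjusted p = 0.278, edgeR). Lars2, a mitochondrial synthetase gene that holds a stretch resembling ribosomal RNA, had 940 to 1296 CPM in controls and 717 and 799 CPM in the mutants (-0.58, SE 0.149, adjusted p = 0.248, edgeR). In both, the mutants were below every control, as for Gm15564. Gm42418 and Gm26917, which gather ribosomal RNA reads, had -0.15 (adjusted p = 0.721) and -0.16 (adjusted p = 0.728) in edgeR, and mt-Rnr1, the small ribosomal RNA of mitochondria, had 0.50 (adjusted p = 0.242) with both mutants above every control. The part of ribosomal RNA reads in the level of Gm15564 was not tested.

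**Figure D5:**
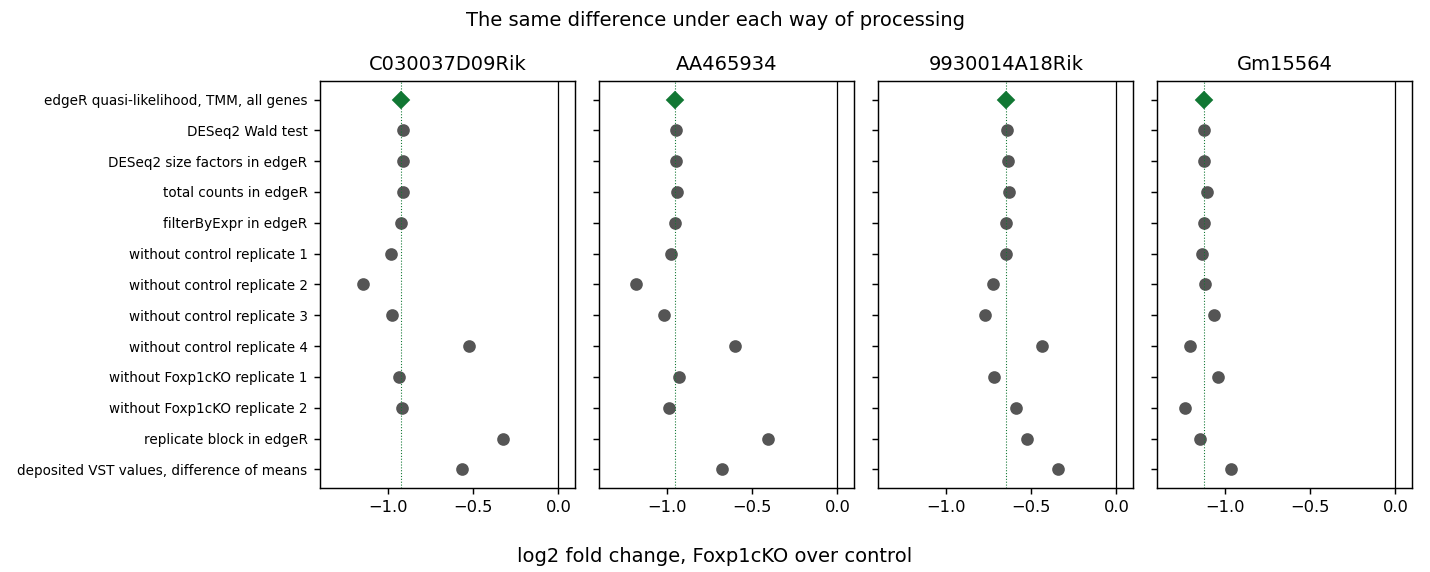
Log2 fold change, Foxp1cKO over control, of each of the 4 genes under every way of processing that was tried, with the edgeR value marked by a green diamond and a dotted line. All values stay below 0. Those of C030037D09Rik and AA465934 shrink most, to -0.32 and -0.41, with the replicate number as a block, where controls 3 and 4 do not enter the group difference. Gm15564 varies least.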

How the data were processed

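Lateral cortex from 6 embryos was profiled by RNA-Seq with a stranded kit. The authors aligned reads to mm10 (Gencode version 17) with STAR, counted them per gene with HTSeq 0.9.1 in union mode, and removed genes with fewer than 10 counts in many samples. The deposited table holds raw counts, and a matching deposited table holds VST values on a log2 scale. The authors' DESeq2 1.30.1 model included litter, which the labels do not give and which was not used here.

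Counts were fitted in R 4.3.3 with edgeR 4.0.16 (TMM, quasi-likelihood test, group alone, every gene kept, Benjamini-Hochberg adjustment across the table, cut at 0.05). CPM used TMM-scaled totals, and log2 CPM a prior count of 2. DESeq2 1.42.0, its size factors, plain totals, filterByExpr, leaving out each library and a replicate block were the alternatives, and the difference of mean VST values was added after the data were seen. The edgeR and DESeq2 steps were tested on simulated data. Of 17068 identifiers, 17047 were matched to GENCODE M21 without their version. Counting errors and floors assume independent reads, so they cover counting error only.

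The members and lists were chosen with earlier results of these data known. Named are the 4 genes, Foxp1, genes overlapping them, the nearest coding genes of the table on each side, neighbours within 250 kb past the threshold, the 5 most similar profiles for each gene, and members of the noncoding and structural RNA lists. Some genes under this rule are left out of the text and figures and are not reported here.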

Additional observations from a re-analysis of the deposited data

Results flagged for a closer look

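In Akap1, a neighbour of C030037D09Rik, control 4 stood apart from the other controls, at 46.2 CPM against 55.5, 55.8 and 57.2 CPM in controls 1 to 3. Its gap to the nearest control was 0.843 of the range of the 4, above Dixon's critical value at 95%. It was the only one of 27 genes looked at (the 4 genes, their 22 neighbours and Foxp1) to be so placed, and chance alone marks about 1 group in 20.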

How the results depend on the processing

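All 4 genes had a negative log2 fold change under every alternative tried. Leaving out each library in turn gave -1.15 to -0.53 for C030037D09Rik, -1.19 to -0.60 for AA465934, -0.77 to -0.44 for 9930014A18Rik and -1.24 to -1.04 for Gm15564, and the values nearest 0 of the first 3 came without control 4. Over all genes the number called went from 26 to 507 with DESeq2 (310 higher, 197 lower) and ranged from 2 to 96 when each library was left out, lowest without control 2 and highest without control 4 (83 higher, 13 lower). It was 6 without control 1, 9 without Foxp1cKO 1 and 3 without Foxp1cKO 2. Of the neighbours, 0 were called in edgeR, 3 with DESeq2, and 0 to 1 when each library was left out (1 without control 4). The median of long noncoding genes ranged from 0.014 to 0.071 over the left-out libraries. The cause of these shifts was not tested.

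Replicate numbers 1 and 2 occur in both groups but mark different embryos, and the labels do not say whether a common number means a common litter. Across genes, the departures of libraries with a common number from their group means had r = -0.198 for number 1 and 0.016 for number 2. With 2 mutants, the departure of each is the reverse of the other's. These values therefore cannot tell whether the numbers pair the samples. Numbers 3 and 4 occur among the controls only. In the fit with a replicate block, controls 3 and 4 therefore do not enter the group difference, which rests on controls 1 and 2 and the 2 mutants. In that fit 0 genes were called (3027 at an unadjusted p under 0.05), 0 of the neighbours were, and the median of long noncoding genes was 0.115. The log2 fold changes were -0.32 for C030037D09Rik, -0.41 for AA465934, -0.52 for 9930014A18Rik and -1.15 for Gm15564. Those of C030037D09Rik and AA465934, both highest in control 4, shrank most. With 2 mutants, the spread within Foxp1cKO is poorly known.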
